A study of Mus musculus with 12 samples.

Results

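The data described here are the effect of leukemia on macrophages sorted from the bone marrow of male mice. Macrophages are the resident phagocytes of the marrow. There they engulf dying cells and the nuclei that red cell precursors expel, return the iron of old red cells to new ones, and hold erythroblasts in islands while these mature. In leukemia, macrophages that take on tumor-supporting states are known as leukemia-associated macrophages, and interferon gamma from T and NK cells is a classical signal that switches macrophages to antigen presentation and killing. The title of the series names lactate in the marrow of acute myeloid leukemia and its receptor GPR81, encoded by Hcar1, as the study's subject.

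All 6 male libraries of the 12 in the series were used, chosen by their labels, with 3 from non-leukemic mice and 3 from leukemic mice. The non-leukemic mice were healthy males, for which no treatment is given. The leukemic males had received cells of a mouse model of blast-crisis chronic myeloid leukemia (bcCML) and were sampled at day 11, late in the disease. Strain, age and any genetic change in the recipients are not given in the sources used here, and neither is whether leukemic cells in the sort could be told from host cells. In published versions of the bcCML model, progenitor cells carry BCR-ABL and a fusion of NUP98 with HOXA9. The gate held no marker of the transplanted cells. In both groups the sorted cells were CD45+, F4/80+, Ly6g- and Ly6c-, that is, white blood cells with the macrophage surface protein F4/80 and without a neutrophil and a monocyte marker. The labels do not say whether the libraries of a group came from separate animals, so every p-value measures the spread between these libraries. In RNA of a sorted population, fewer cells of a type and less RNA per cell cannot be told apart.

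Levels are given in CPM, a gene's counts relative to the total of its library, with library totals adjusted by edgeR's TMM factors. Changes are log2 fold changes, leukemic minus non-leukemic, with their standard error and an adjusted p from edgeR's quasi-likelihood test (n = 3 libraries per group). Library totals ran from 16911827 to 28564607 counts. The leukemic libraries lay close together, and the non-leukemic ones spread along the second principal component (19.23% of the variance), from 57.5 for library 1 to -69.6 for library 3. Non-leukemic library 3 stood apart in macrophage genes: 16 genes of macrophage identity held 0.653, 0.986 and 1.62% of counts in non-leukemic libraries 1 to 3 and 0.431, 0.359 and 0.398% in the leukemic ones. Adgre1, which encodes the F4/80 protein of the gate, measured 78, 113 and 284 CPM in the non-leukemic and 49.2, 58.2 and 56 CPM in the leukemic libraries (-1.54 ± 0.44, adjusted p = 0.0759). Csf1r, the receptor for the macrophage growth factor CSF1, measured 354, 392 and 1219.6 CPM in the non-leukemic and 311, 312 and 288 CPM in the leukemic libraries (-1.11 ± 0.46, adjusted p = 0.178). Neither passed the test with all 6 libraries, and without non-leukemic library 3 the Csf1r levels of the groups lay close together. The Y-linked genes Ddx3y, Eif2s3y, Kdm5d and Uty and the X inactivation gene Xist did not pass. The pan-leukocyte gene Ptprc, which encodes CD45, rose (0.83 ± 0.15, adjusted p = 0.0205), and Lyz2, the lysozyme of phagocytes, fell (-2.20 ± 0.34, adjusted p = 0.0108). Ptprc did not pass when leukemic library 1, 2 or 3 or non-leukemic library 2 was left out (adjusted p up to 0.110). Lyz2 failed in at least 1 of these omissions, not necessarily in all (adjusted p up to 0.0703). Adgre1 passed only without non-leukemic library 1 or 3 (adjusted p = 0.0177 or 0.0237).

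With all 6 libraries, 1253 of 14574 tested genes (8.6%) passed an adjusted p of 0.05, of which 701 (4.81%) were higher and 552 (3.79%) lower in the leukemic libraries. All 1253 kept the groups from overlapping. Over all tested genes, the leukemic libraries lay wholly above the non-leukemic ones for 18.3% and wholly below for 15.9%, and the median log2 fold change was -0.00. Counts in the lists below are to be read against these shares and against the 4.81% and 3.79% called. A count near them is no result about the list's members. Changes of more than 4-fold were fitted for 300 of the higher and 217 of the lower genes. These include 58 genes with no count in the non-leukemic libraries and 7 with none in the leukemic libraries, whose fitted size depends on the prior count. All 3 non-leukemic libraries were below 10 counts for 115 of the higher genes. All 3 leukemic libraries were below 10 counts for 35 of the lower genes. These passed the filter through 1 group, and their number supports no direction. Other higher genes had 10 counts in 3 libraries within the leukemic group only, but in some non-leukemic libraries as well. Among them are Gzmk (5, 3 and 17 non-leukemic counts), Cd40lg (15, 8 and 6) and Dusp4 (2, 8 and 11). Tyro3 (0, 13 and 8), Tnfsf4 (10, 0 and 23), Tigit (12, 3 and 45) and Tnfrsf4 (46, 9 and 55) are others. They are not in the 115, and the same limit holds for them. Single libraries moved the number of calls strongly: it was 317, 267 and 270 without leukemic libraries 1, 2 and 3, and 1813, 480 and 2503 without non-leukemic libraries 1, 2 and 3. In the fit without non-leukemic library 3, 9.71% of 14205 genes were higher and 7.91% lower, and 1201 of the 1253 genes kept their call. A core of 218 genes, 145 higher and 73 lower, passed in the full fit and in each of the 6 fits with 1 library left out. No called gene reversed in any of these fits.

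**Figure D1:**
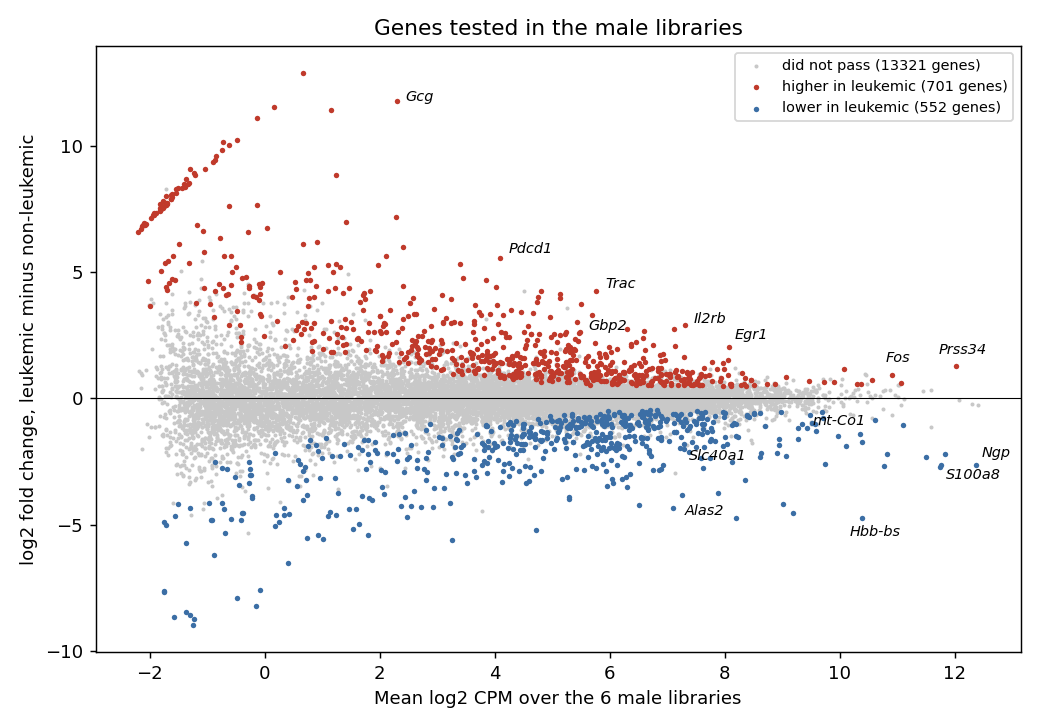
Each point is 1 of the 14574 tested genes, placed by its mean log2 CPM over the 6 male libraries (x axis) and its log2 fold change, leukemic minus non-leukemic (y axis). Red points are the 701 genes called higher and blue points the 552 called lower at an adjusted p under 0.05, and the rising line of red points at the left holds genes with no count in the non-leukemic libraries; globin genes lie at the lower right and T cell genes at the upper middle.

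Genes of the red cell program fell, and of the 51 lists the erythroid markers had the lowest median. Hemoglobin is built from alpha and beta globin chains and heme, and the macrophages of erythroblastic islands carry and ingest parts of the cells that make it. Hbb-bs, an adult beta globin, measured 5484, 8283 and 7317 CPM in the non-leukemic and 343, 183 and 266 CPM in the leukemic libraries, a log2 fold change of -4.74 ± 0.31 (adjusted p = 0.000790). Every leukemic library lay more than 10-fold below every non-leukemic one. Alas2, the erythroid enzyme that starts heme synthesis, measured 609, 659 and 634 CPM in the non-leukemic and 45.8, 19.4 and 28.8 CPM in the leukemic libraries (-4.34 ± 0.32, adjusted p = 0.000977), again with no overlap. Hba-a1 and Hba-a2, the adult alpha globins, fell by similar amounts (-4.55 ± 0.28 and -4.75 ± 0.38), as did Hbb-bt, the other adult beta globin (-4.20 ± 0.31). These pairs are near-identical copies, and the division of reads between them is uncertain. Of 17 tested erythroid marker genes, 14 fell and 0 rose, with a median log2 fold change of -3.52 against -0.00 over all genes. Among them were Slc4a1, the band 3 anion exchanger (-3.74 ± 0.57), Epb42, protein 4.2 of the membrane skeleton (-3.92 ± 0.42), Sptb, beta spectrin (-3.52 ± 0.49), and Klf1, the erythroid transcription factor (-2.36 ± 0.39, adjusted p = 0.0145). As a whole the list took 1.70, 1.87 and 1.55% of counts in the non-leukemic and 0.144, 0.0738 and 0.114% in the leukemic libraries. Among the largest falls outside the list were Rhd, a Rhesus blood group protein (-3.83 ± 0.42, adjusted p = 0.00354), Trim10 (-3.99 ± 0.59, adjusted p = 0.0101) and Ackr1, the Duffy antigen and a chemokine scavenger (-4.28 ± 0.51, adjusted p = 0.00456). The adaptor genes Sh3tc2 (-5.60 ± 0.62) and Sh2d4a (-4.16 ± 0.60) and the carbonic anhydrase gene Car2 (-2.21 ± 0.39) fell too. Calls in the erythroid list numbered 0 higher and 7 to 16 lower with 1 library left out in turn. Hbb-bs, Hba-a1, Hba-a2, Hbb-bt, Alas2, Epb42, Rhd, Ackr1 and Sh3tc2 passed whichever 1 library was left out. Klf1 and Car2 did not pass when leukemic library 1, 2 or 3 or non-leukemic library 2 was left out (adjusted p up to 0.0903). Slc4a1, Sptb, Trim10 and Sh2d4a each failed in at least 1 of these omissions, not necessarily in all (adjusted p up to 0.0660). Slc4a1 had a log2 fold change of -3.11 without non-leukemic library 1, Sptb one of -2.84 without non-leukemic library 1, Sh3tc2 one of -4.78 without non-leukemic library 1 and Sh2d4a one of -3.54 without non-leukemic library 1.

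The promoters of the leading globin and heme gene are shown because both genes fell and carry short sequences recognised by erythroid factors. The 110 bases before the start site are from RefSeq (GRCm38.p6), at chr7:103827929-103828038, minus strand for Hbb-bs and chrX:150547307-150547416, plus strand for Alas2, 5′ to 3′ along the gene. Capitals mark CCACACCC, the KLF1 site of the beta globin promoter, in Hbb-bs, and the GATA site AGATAA, here read on the other strand, in Alas2.
Hbb-bs: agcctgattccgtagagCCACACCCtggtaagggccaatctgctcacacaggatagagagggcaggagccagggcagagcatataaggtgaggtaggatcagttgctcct
Alas2: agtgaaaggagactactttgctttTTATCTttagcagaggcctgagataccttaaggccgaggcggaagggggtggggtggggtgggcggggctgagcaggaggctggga
Over windows of 300 bases around each start site, searched on both strands, AGATAA was found in 5 of the 14 erythroid list genes with a window and in 12.7% of 27025 genes. CCACACCC was found in 1 of the 14 and in 4.09% of genes. Neither motif was particular to the list that fell. Of the 10 GTPase genes with a window, a list that rose and is described below, AGATAA was found in 4 and CCACACCC in 1. These are letter matches in a reference genome and describe no binding.

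In the lists of erythroblastic island macrophage genes and of iron recycling, 8 of 21 and 8 of 21 genes fell. Slc40a1, ferroportin, the only known exporter of cellular iron, measured 323, 257 and 302 CPM in the non-leukemic and 80.3, 63.6 and 84.6 CPM in the leukemic libraries (-1.95 ± 0.16, adjusted p = 0.00117), with the lowest non-leukemic library about 3-fold above the highest leukemic one. Hpgd, which degrades prostaglandin E2, measured 53.1, 57.3 and 126 CPM in the non-leukemic and 10.6, 11 and 10.3 CPM in the leukemic libraries (-2.89 ± 0.36, adjusted p = 0.00509). Cd163, the receptor for hemoglobin bound to haptoglobin, measured 28, 34.7 and 74.7 CPM in the non-leukemic and 12.2, 11 and 9.98 CPM in the leukemic libraries (-2.05 ± 0.38, adjusted p = 0.0205), and Fcna, ficolin A, fell as well (-2.33 ± 0.42). No resident or island macrophage gene rose, and the list's median was -1.54. The others that fell were Vcam1, the adhesion molecule that holds erythroblasts (-1.54), Siglec1, the sialic acid receptor CD169 (-1.93), Mrc1, the mannose receptor (-1.96), and Hmox1, heme oxygenase 1 (-1.77). All 21 had a negative log2 fold change, and 15 had leukemic libraries wholly below the non-leukemic ones. In the iron and heme list 1 gene rose (median -1.08). Those that fell included Slc25a37, mitoferrin, which brings iron into mitochondria (-2.61 ± 0.20), Blvrb, biliverdin reductase B (-2.76 ± 0.39), and the ferritin subunits Fth1 (-1.04 ± 0.16) and Ftl1 (-0.99 ± 0.24). Slc39a14, a zinc and iron importer, was the 1 gene that rose (1.54 ± 0.24, adjusted p = 0.0117). Slc11a2, the iron carrier DMT1, fell as well (-1.08 ± 0.23, adjusted p = 0.0318). The summed island list took 0.122, 0.137 and 0.276% of counts in non-leukemic libraries 1 to 3 and 0.0679, 0.0649 and 0.0686% in the leukemic ones, so that library 3 was high here as it was for macrophage identity. Island list calls numbered 0 higher and 2 to 12 lower, and iron list calls 0 to 1 higher and 2 to 14 lower, with 1 library left out in turn. Without non-leukemic library 3 the island median was -0.97. Slc40a1, Hpgd and Slc25a37 passed whichever 1 library was left out. Cd163, Fcna, Ftl1, Mrc1, Vcam1, Siglec1, Hmox1 and Slc11a2 did not pass when leukemic library 1, 2 or 3 or non-leukemic library 2 was left out (adjusted p up to 0.180). Blvrb, Fth1 and Slc39a14 each failed in at least 1 of these omissions, not necessarily in all (adjusted p up to 0.0800). Siglec1 did not pass with limma-voom (adjusted p = 0.0594). Fcna had a log2 fold change of -1.68 without non-leukemic library 3 and Siglec1 one of -1.29 without non-leukemic library 3. The erythroid share (between 1.55% and 1.87% of non-leukemic counts, and 0.0738% to 0.144% of leukemic counts) moved with both lists, and Slc25a37 and Blvrb are also abundant in red cell precursors. The part of those cells in the result was not tested.

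**Figure D2:**
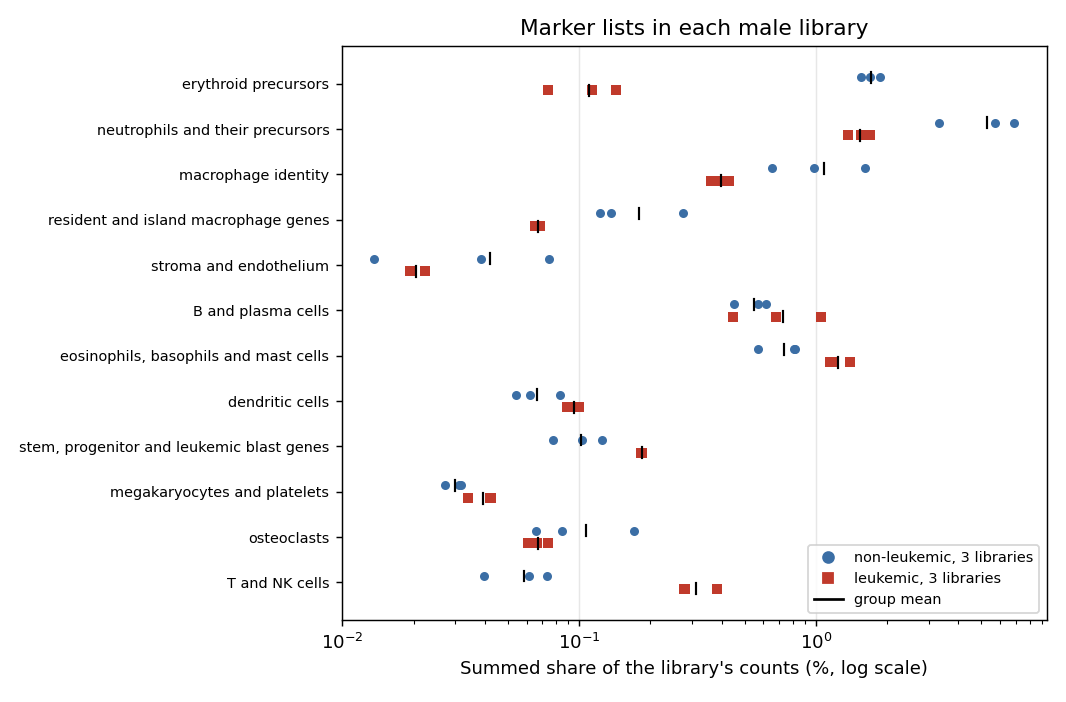
Summed share of counts taken by each of 12 lists in each male library, in percent on a log axis; blue circles are the 3 non-leukemic and red squares the 3 leukemic libraries, and short black lines are group means. Erythroid markers lie lower in the leukemic libraries (between 1.55% and 1.87% of non-leukemic counts, and 0.0738% to 0.144% of leukemic counts) and T and NK cell markers higher (between 0.0397% and 0.0735% of non-leukemic counts, and 0.278% to 0.383% of leukemic counts).

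Most neutrophil genes fell, although the sort was set against that lineage. S100a8, which with S100a9 forms the calprotectin of neutrophils and monocytes, measured 5123, 10506 and 11320.0 CPM in the non-leukemic and 1582, 1256 and 1306 CPM in the leukemic libraries (-2.70 ± 0.32, adjusted p = 0.00452). S100a9 measured 5224, 10055 and 11283 CPM in the non-leukemic and 1669, 1267 and 1378 CPM in the leukemic libraries (-2.62 ± 0.31, adjusted p = 0.00456). The leukemic libraries lay in a narrow range below all non-leukemic ones, of which library 1 was the lowest. Ngp and Ltf, neutrophilic granule protein and lactoferrin of the secondary granules, fell (-2.62 ± 0.34 and -2.31 ± 0.31), as did Camp, the cathelicidin antimicrobial peptide (-2.69 ± 0.24). In all, 11 of 17 neutrophil genes fell and 0 rose (median -1.82). The leukemic libraries lay wholly below for 13, against 15.9% of all tested genes. The list took 3.32, 5.70 and 6.91% of counts in the non-leukemic and 1.69, 1.37 and 1.55% in the leukemic libraries, more than any other cell type list in the non-leukemic libraries. Ly6g, the neutrophil antigen that the sort excluded, measured 32, 56.9 and 85.8 CPM in the non-leukemic and 9.69, 4.57 and 6.44 CPM in the leukemic libraries (-3.08 ± 0.43, adjusted p = 0.00809). Ly6c2, of the excluded monocyte antigen, measured 212, 307 and 496 CPM in the non-leukemic and 152, 116 and 134 CPM in the leukemic libraries (-1.34 ± 0.30, adjusted p = 0.0367), while Ly6c1 measured 0.280, 0.179 and 0.616 CPM in the non-leukemic and 0.564, 0.432 and 1.48 CPM in the leukemic libraries and did not pass (1.18 ± 0.77, adjusted p = 0.386). Neutrophil list calls numbered 0 higher and 4 to 15 lower with 1 library left out in turn. S100a8, S100a9 and Camp passed whichever 1 library was left out. Ly6c2 did not pass when leukemic library 1, 2 or 3 or non-leukemic library 2 was left out (adjusted p up to 0.159). Ngp, Ltf and Ly6g each failed in at least 1 of these omissions, not necessarily in all (adjusted p up to 0.0544).

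Genes of T and NK lymphocytes rose, and of the 51 lists theirs had the highest median. These cells kill infected or malignant cells, signal through the CD3 chains of the T cell receptor, and are not macrophages. Trac, the constant region of the T cell receptor alpha chain, measured 9.70, 12.2 and 16.5 CPM in the non-leukemic and 191, 343 and 198 CPM in the leukemic libraries (4.25 ± 0.32, adjusted p = 0.00101). Cd3e, a signalling chain of the receptor, measured 5.18, 7.16 and 8.34 CPM in the non-leukemic and 82.4, 160.1 and 90.7 CPM in the leukemic libraries (4.01 ± 0.33, adjusted p = 0.00120). Leukemic library 2 was the highest for both, and the lowest leukemic library was about 10-fold above the non-leukemic ones. Of 19 tested T and NK genes, 18 rose and 0 fell, with a median of 3.0 against -0.00 over all genes, and all 19 had no overlap. Cd8a and Cd4, the coreceptors of killer and helper T cells, rose by 3.0 ± 0.37 and 2.59 ± 0.37, Gzmb and Prf1, granzyme B and perforin of cytotoxic granules, by 3.74 ± 0.31 and 2.56 ± 0.48, and Ncr1, the NK cell receptor NKp46, by 1.84 ± 0.22. Il2rb, the interleukin 2 receptor beta chain, measured 54.6, 45.6 and 75.7 CPM in the non-leukemic and 409, 479 and 418 CPM in the leukemic libraries (2.89 ± 0.21, adjusted p = 0.000977). Chosen for the size of their rise alone, Cd5, Cd6 and Cd247 (T cell surface regulators and the CD3 zeta chain) rose by 4.66 ± 0.36, 4.24 ± 0.35 and 4.41 ± 0.26, and Trgc1, a gamma chain constant region, by 4.75 ± 0.49. Tox, a transcription factor of persistently stimulated T cells, rose by 3.69 ± 0.33, and Chst2, a carbohydrate sulfotransferase, by 3.94 ± 0.39. T cell receptor constant and variable genes have close copies, so reads may be split between Trbc1 (3.43 ± 0.29) and Trbc2 (4.15 ± 0.25). The T and NK list took 0.0397, 0.0616 and 0.0735% of counts in the non-leukemic and 0.278, 0.383 and 0.279% in the leukemic libraries. Its calls numbered 15 to 19 higher and 0 lower with 1 library left out in turn. Trac, Cd3e, Cd8a, Cd4, Gzmb, Ncr1, Il2rb, Cd5, Cd6, Cd247, Trgc1, Tox, Chst2, Trbc1 and Trbc2 passed whichever 1 library was left out. Prf1 did not pass when leukemic library 1, 2 or 3 or non-leukemic library 2 was left out (adjusted p up to 0.0913). Prf1 had a log2 fold change of 3.30 without non-leukemic library 3.

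Part of the checkpoint and costimulatory genes rose as well. Pdcd1, which encodes PD-1, the inhibitory receptor of activated T cells, measured 0.793, 2.51 and 5.02 CPM in the non-leukemic and 105, 164 and 125 CPM in the leukemic libraries (5.56 ± 0.59, adjusted p = 0.00287), and the non-leukemic libraries differed among themselves, with library 1 near 0. Ctla4, another inhibitory receptor, measured 1.45, 1.31 and 0.663 CPM in the non-leukemic and 15.9, 30.7 and 27.3 CPM in the leukemic libraries (4.43 ± 0.42, adjusted p = 0.00190). Tnfrsf4 (OX40) and Tnfrsf9 (4-1BB), costimulatory receptors of activated T cells, rose by 5.30 ± 0.48 and 3.50 ± 0.32. Of 25 tested genes 11 rose and 0 fell (median 0.81); the others that rose were Lag3 (2.25), Tigit (4.24), Icos (2.20), Tnfrsf18 (1.82), Tnfsf4, the OX40 ligand (4.01), Pdcd1lg2, the PD-1 ligand PD-L2 (2.08), and Pvr, a ligand of TIGIT (1.44). The PD-1 ligand Cd274 measured 13.5, 13.9 and 22.9 CPM in the non-leukemic and 31.4, 28.9 and 27.8 CPM in the leukemic libraries and did not pass (0.81 ± 0.25, adjusted p = 0.0902). Most receptors in the list are expressed by T cells. The T and NK marker share (between 0.0397% and 0.0735% of non-leukemic counts, and 0.278% to 0.383% of leukemic counts) moved with this list and with the cytokines, chemokines, GTPases and MHC class I genes below, and its part in those results was not tested. Calls in the list numbered 6 to 14 higher and 0 to 1 lower with 1 library left out in turn. Pdcd1, Ctla4, Tnfrsf4, Tnfrsf9, Icos and Tnfrsf18 passed whichever 1 library was left out. Tigit, Pdcd1lg2 and Pvr did not pass when leukemic library 1, 2 or 3 or non-leukemic library 2 was left out (adjusted p up to 0.162). Tnfsf4 failed in at least 1 of these omissions, not necessarily in all (adjusted p up to 0.124). Lag3 did not pass without leukemic library 1, 2 or 3 or non-leukemic library 1 or 2 (adjusted p up to 0.153). The filter limit stated above holds for Tigit, Tnfsf4 and Tnfrsf4. Cd274 passed only without non-leukemic library 3 (adjusted p = 0.00920). Pdcd1 had a log2 fold change of 6.36 without non-leukemic library 3, Lag3 one of 3.01 without non-leukemic library 3, Tigit one of 5.56 without non-leukemic library 3 and Tnfsf4 one of 5.08 without non-leukemic library 3.

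Most cytokine genes did not pass, and interferon gamma was among those that rose. Ifng measured 3.22, 2.27 and 1.37 CPM in the non-leukemic and 22.3, 34.5 and 22.8 CPM in the leukemic libraries (3.53 ± 0.38, adjusted p = 0.00297). Ltb, lymphotoxin beta of lymphocytes, measured 40.3, 29.9 and 33.7 CPM in the non-leukemic and 105, 139 and 124 CPM in the leukemic libraries (1.82 ± 0.17, adjusted p = 0.00190), and Il6, an acute inflammatory cytokine, measured 3.73, 3.52 and 2.08 CPM in the non-leukemic and 6.64, 13.9 and 14.2 CPM in the leukemic libraries (1.90 ± 0.41, adjusted p = 0.0325). Il10, an anti-inflammatory cytokine, measured 0.280, 0.896 and 0 CPM in the non-leukemic and 3.42, 9.14 and 5.68 CPM in the leukemic libraries and did not pass (3.99 ± 1.01, adjusted p = 0.0532). In the list 3 of 21 tested cytokines rose and 0 fell, against 4.81% higher and 3.79% lower of all tested genes. Calls numbered 2 to 5 higher and 0 to 2 lower with 1 library left out in turn. Macrophage products in it such as Tnf (-0.72 ± 0.40, adjusted p = 0.309) and Il1b (-0.64 ± 0.26, adjusted p = 0.173) did not pass. Ifng and Ltb passed whichever 1 library was left out. Il6 did not pass without leukemic library 2 or 3 or non-leukemic library 2 (adjusted p up to 0.136). Il10 passed only without non-leukemic library 3 (adjusted p = 0.0188). Il6 did not pass with limma-voom (adjusted p = 0.0523).

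Chemokines, which recruit white blood cells, rose in part. Ccl3, an inflammatory chemokine of macrophages and lymphocytes, measured 33.4, 40.1 and 33 CPM in the non-leukemic and 115, 167 and 131 CPM in the leukemic libraries (1.95 ± 0.18, adjusted p = 0.00170). Ccl4, a close relative of Ccl3, measured 41.6, 43.5 and 37.8 CPM in the non-leukemic and 154, 252 and 167 CPM in the leukemic libraries (2.22 ± 0.21, adjusted p = 0.00192). All leukemic libraries lay above all non-leukemic ones for both genes, with leukemic library 2 the highest. Xcl1, lymphotactin, made by killer lymphocytes, rose by 2.11 ± 0.26, Ccl5, a chemokine of T cells, by 1.65 ± 0.33, and Cxcl9, a target of interferon gamma that attracts CXCR3-bearing T cells, by 2.98 ± 0.50. Ccl8, a monocyte attractant, measured 1.40, 0.896 and 3.36 CPM in the non-leukemic and 16.6, 13.3 and 20.1 CPM in the leukemic libraries (3.13 ± 0.50, adjusted p = 0.0130). Ccl24, an eosinophil attractant, measured 0.326, 0.299 and 0.237 CPM in the non-leukemic and 91.5, 5.36 and 14.1 CPM in the leukemic libraries, with counts of 7, 5 and 5 in the non-leukemic libraries. It reached the count minimum in the leukemic libraries alone, and limma-voom did not call it (adjusted p = 0.234). Of 22 tested chemokines 7 were called higher, Ccl24 included, and 0 lower (median 1.63). Among receptors, Cxcr3 and Cxcr6 of T and NK cells rose by 2.23 ± 0.30 and 2.54 ± 0.32, while Ccr3, the eotaxin receptor of eosinophils and basophils, fell (-2.57 ± 0.41), and 12 of 16 tested receptors did not pass. Chemokine calls numbered 3 to 11 higher and 0 lower, and receptor calls 2 to 6 higher and 1 to 5 lower, with 1 library left out in turn. Ccl3, Ccl4, Xcl1, Cxcr3 and Cxcr6 passed whichever 1 library was left out. Ccl5 and Cxcl9 did not pass when leukemic library 1, 2 or 3 or non-leukemic library 2 was left out (adjusted p up to 0.114). Ccl8 and Ccr3 each failed in at least 1 of these omissions, not necessarily in all (adjusted p up to 0.0678). Cxcl9 had a log2 fold change of 3.71 without non-leukemic library 3 and Ccl8 one of 3.84 without non-leukemic library 3.

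Interferon gamma induces 2 families of large GTPases, the guanylate-binding proteins (Gbp genes) and the immunity-related GTPases (Irgm, Igtp, Tgtp and others), which attack vacuoles that hold pathogens. Promoters of 4 of them are shown because 12 of 15 family members rose. The 110 bases before the start site are from RefSeq (GRCm38.p6), at chr3:142620553-142620662, plus strand for Gbp2, chr3:142530226-142530335, plus strand for Gbp7, chr11:58199446-58199555, plus strand for Igtp and chr11:49064213-49064322, minus strand for Tgtp2, 5′ to 3′ along the gene. Capitals mark the core of the interferon-stimulated response element, ISRE (GAAA, any 2 bases, GAAA, or its reverse complement), and the STAT site TTCNNNGAA.
Gbp2: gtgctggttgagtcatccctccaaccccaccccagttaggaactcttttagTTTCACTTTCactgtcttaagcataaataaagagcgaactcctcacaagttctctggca
Gbp7: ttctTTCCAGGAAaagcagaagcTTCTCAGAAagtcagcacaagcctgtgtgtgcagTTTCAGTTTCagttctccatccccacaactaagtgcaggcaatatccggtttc
Igtp: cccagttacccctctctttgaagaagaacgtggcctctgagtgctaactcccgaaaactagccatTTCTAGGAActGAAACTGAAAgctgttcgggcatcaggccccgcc
Tgtp2: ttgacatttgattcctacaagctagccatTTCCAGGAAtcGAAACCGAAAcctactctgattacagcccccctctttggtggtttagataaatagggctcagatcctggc
Within 300-base windows searched on both strands, the ISRE core was present in 9 of the 10 GTPase genes with a window and in 3.99% of 27025 genes. The STAT site was present in 6 of the 10 and in 9.55% of genes. In Tgtp2, Igtp and Gbp7 both motifs lie in the stretch shown, whereas the Gbp2 stretch holds the ISRE core alone. A match describes the reference sequence only.

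Gbp2 measured 19.9, 16.6 and 17.7 CPM in the non-leukemic and 110.2, 123 and 97 CPM in the leukemic libraries (2.61 ± 0.16, adjusted p = 0.000790), and Tgtp2 measured 11.1, 13 and 11.7 CPM in the non-leukemic and 50.3, 64.8 and 62 CPM in the leukemic libraries (2.30 ± 0.18, adjusted p = 0.000977). In both genes all leukemic libraries lay at least 3-fold above all non-leukemic ones. Gbp3 and Gbp4 rose by 2.28 ± 0.16 and 2.60 ± 0.20, and Gbp7, Igtp and Irgm1 by 1.277 ± 0.24, 1.69 ± 0.19 and 1.09 ± 0.22. Of 15 tested GTPases 12 rose and 0 fell, with a median of 2.28 against -0.00 over all genes, and all 15 had leukemic libraries wholly above the non-leukemic ones. Several of the family are near-identical neighbours, Tgtp1 and Tgtp2 among them, and reads may be divided between them. Their summed counts made up 0.0358, 0.0318 and 0.0378% of the non-leukemic and 0.107, 0.127 and 0.111% of the leukemic libraries, and calls numbered 7 to 14 higher and 0 lower with 1 library left out in turn. Gbp2, Gbp3, Gbp4, Tgtp2 and Igtp passed whichever 1 library was left out. Gbp7 and Irgm1 did not pass when leukemic library 1, 2 or 3 or non-leukemic library 2 was left out (adjusted p up to 0.114).

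Genes of antigen presentation on MHC class I, through which cells show peptides to killer T cells, rose in part, and none of class II passed. H2-Q7, a nonclassical class I molecule, measured 21.4, 18.1 and 25.9 CPM in the non-leukemic and 68.4, 93.6 and 82.6 CPM in the leukemic libraries (1.90 ± 0.20, adjusted p = 0.00257). Nlrc5, the class I transactivator, measured 24.5, 12.8 and 21 CPM in the non-leukemic and 75.3, 83.9 and 67.9 CPM in the leukemic libraries (1.96 ± 0.25, adjusted p = 0.00584). H2-Q6 rose by 1.71 ± 0.22, Tap1, a subunit of the peptide transporter, by 1.39 ± 0.21, Tap2 by 0.85 ± 0.15, Psmb9 and Psme2 of the immunoproteasome and its activator by 1.02 ± 0.23 and 0.80 ± 0.16, and Erap1, which trims peptides, by 1.09 ± 0.16. In all 10 of 20 class I and immunoproteasome genes rose and 0 fell (median 0.90). The leukemic libraries lay wholly above for 15, against 18.3% of all tested genes. H2-Q genes share long stretches of sequence, and reads could be split among them. The 15 tested class II genes had 0 higher and 0 lower by edgeR (median -0.04; at an unadjusted p under 0.05, 2 were higher and 0 lower, while DESeq2 called 1 higher and 0 lower and limma-voom 0 and 0). Cd74, the invariant chain, measured 2524, 2403 and 10757 CPM in the non-leukemic and 2509, 2434 and 2150.4 CPM in the leukemic libraries (-1.14 ± 0.57, adjusted p = 0.256), high in non-leukemic library 3 alone. Without that library 6 class II genes were higher and the median was 0.38. H2-DMb2, a peptide exchange factor, stood at 0.75 ± 0.21, adjusted p = 0.0722. Calls numbered 3 to 18 higher and 0 lower for class I and 0 to 6 higher and 0 lower for class II, with 1 library left out in turn. H2-Q7, Nlrc5 and H2-Q6 passed whichever 1 library was left out. Tap2, Psmb9 and Psme2 did not pass when leukemic library 1, 2 or 3 or non-leukemic library 2 was left out (adjusted p up to 0.147). Tap1 and Erap1 each failed in at least 1 of these omissions, not necessarily in all (adjusted p up to 0.0584). H2-DMb2 passed only without non-leukemic library 3 (adjusted p = 0.0247).

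Most antiviral genes induced by type I interferon did not pass. Of 23 tested, 3 rose and 1 fell (median 0.27), against 4.81% higher and 3.79% lower of all tested genes. Zbp1, a sensor of Z-form nucleic acid, rose by 1.86 ± 0.30, Ifi44 by 1.79 ± 0.31 and Ifih1, the RNA sensor MDA5, by 1.08 ± 0.23. Rsad2, viperin, an antiviral enzyme, fell instead, from 77.7, 132 and 153 CPM in the non-leukemic to 28.7, 24.4 and 25.2 CPM in the leukemic libraries (-2.21 ± 0.26, adjusted p = 0.00433). Without non-leukemic library 3 the counts were 10 higher and 1 lower, and over the omissions they were 0 to 10 higher and 1 lower. Rsad2 passed whichever 1 library was left out. Ifih1 did not pass when leukemic library 1, 2 or 3 or non-leukemic library 2 was left out (adjusted p up to 0.133). Zbp1 and Ifi44 each failed in at least 1 of these omissions, not necessarily in all (adjusted p up to 0.0882).

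**Figure D3:**
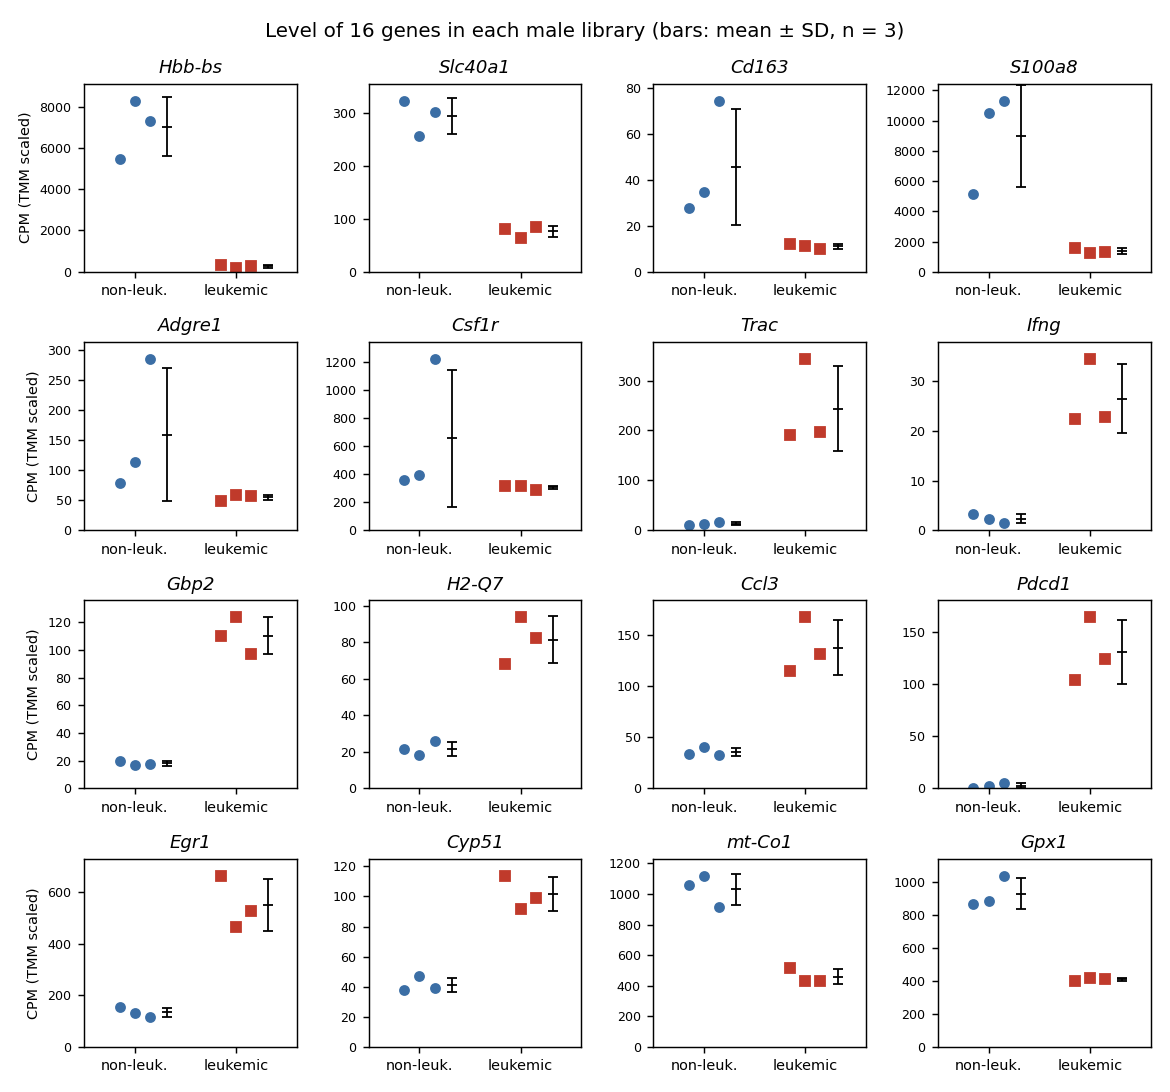
TMM-scaled CPM of 16 genes in each male library, with blue circles for the 3 non-leukemic and red squares for the 3 leukemic libraries, and black bars for the mean ± SD (n = 3); each axis starts at 0. Adgre1 and Csf1r are raised in non-leukemic library 3 (the rightmost blue circle), and in all 16 panels the groups do not overlap.

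Part of the immediate early genes, transcription factors and phosphatases switched on within minutes of a stimulus, rose. Egr1 measured 153, 131 and 117 CPM in the non-leukemic and 662, 465 and 525 CPM in the leukemic libraries (2.04 ± 0.18, adjusted p = 0.00146), with each leukemic library about 3-fold or more above each non-leukemic one. Fos, which with Jun forms the transcription factor AP-1, measured 1177, 1428 and 1570.5 CPM in the non-leukemic and 2761, 2499.9 and 2665 CPM in the leukemic libraries (0.92 ± 0.16, adjusted p = 0.0154). Jun measured 917, 792 and 505 CPM in the non-leukemic and 1642, 1584 and 1680.0 CPM in the leukemic libraries (1.15 ± 0.22, adjusted p = 0.0241), lowest in non-leukemic library 3. Fosb, Nr4a2 and Dusp4 rose by 2.44 ± 0.27, 2.33 ± 0.24 and 5.30 ± 0.55, and Dusp1, a phosphatase that ends MAP kinase signals, by 0.63 ± 0.13. Of 25 tested genes 11 rose and 0 fell (median 0.92). NF-kB feedback genes had 3 of 20 higher and 0 lower (median 0.54): Tnfaip3, the ubiquitin editor A20, measured 75.9, 53.6 and 32.7 CPM in the non-leukemic and 180.3, 314 and 212 CPM in the leukemic libraries (2.12 ± 0.34, adjusted p = 0.0130), and Traf1 and Tnip3, an adaptor and an A20-binding inhibitor, rose by 2.04 ± 0.38 and 1.37 ± 0.30. Nfkbiz did not pass (0.71 ± 0.19, adjusted p = 0.0625). Calls numbered 5 to 14 higher and 0 to 1 lower for the immediate early genes and 0 to 12 higher and 0 lower for the NF-kB list, with 1 library left out in turn. Egr1, Fosb, Nr4a2 and Dusp4 passed whichever 1 library was left out. Fos, Jun, Dusp1 and Traf1 did not pass when leukemic library 1, 2 or 3 or non-leukemic library 2 was left out (adjusted p up to 0.152). Tnfaip3 failed in at least 1 of these omissions, not necessarily in all (adjusted p up to 0.0648). Tnip3 did not pass without leukemic library 1, 2 or 3 or non-leukemic library 1 or 2 (adjusted p up to 0.140). The filter limit stated above holds for Dusp4.

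A few chaperones of the endoplasmic reticulum rose by small amounts. Hspa5, the master chaperone BiP, measured 1593, 1917 and 1741 CPM in the non-leukemic and 2566, 2933 and 2472 CPM in the leukemic libraries (0.60 ± 0.15, adjusted p = 0.0496), and Hsp90b1, Calr and Pdia4, a chaperone, a calcium-binding lectin and a disulfide isomerase, rose by 0.64 ± 0.13, 0.57 ± 0.14 and 0.73 ± 0.15. Ddit3, the stress factor CHOP, fell (-1.04 ± 0.23, adjusted p = 0.0349), so the list of 22 held 4 genes that rose and 1 that fell (median 0.25). Of 16 heat shock genes, Hspa8, the constitutive HSC70, was the only one to pass (0.58 ± 0.14, adjusted p = 0.0425). Among p53 targets and apoptosis genes 4 of 20 rose and 1 fell (median 0.39). Pmaip1, the death gene NOXA, measured 15.2, 9.79 and 12 CPM in the non-leukemic and 32.6, 41.9 and 40.9 CPM in the leukemic libraries (1.64 ± 0.22, adjusted p = 0.00716), Phlda3 and Ccng1 rose by 1.65 ± 0.25 and 0.91 ± 0.20, and Bcl2l1, which encodes the survival protein BCL-XL and is abundant in late erythroblasts, fell (-0.92 ± 0.21). Cdkn2a, a cell cycle inhibitor gene, had counts of 1, 1 and 0 in the non-leukemic and 20, 11 and 48 in the leukemic libraries, so that it reached the count minimum in the leukemic libraries alone, and is among the 4 called higher. Calls numbered 0 to 6 higher and 0 to 2 lower for the stress response and 1 to 7 higher and 0 to 1 lower for the p53 list, with 1 library left out in turn. Pmaip1 passed whichever 1 library was left out. Ccng1, Bcl2l1, Hspa5, Hsp90b1, Calr, Pdia4, Ddit3 and Hspa8 did not pass when leukemic library 1, 2 or 3 or non-leukemic library 2 was left out (adjusted p up to 0.219). Phlda3 failed in at least 1 of these omissions, not necessarily in all (adjusted p up to 0.0611). Hspa5 and Calr did not pass with other size factors (adjusted p = 0.0518 and 0.0509), and Hspa5 and Calr did not pass with a minimum of 5 CPM in 3 libraries (adjusted p = 0.0559 and 0.0529).

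Receptors by which macrophages take up and sense their surroundings had negative medians and few calls. The macrophage identity share moved with them (between 0.653% and 1.62% of non-leukemic counts, and 0.359% to 0.431% of leukemic counts), and its part was not tested. Of 19 complement genes 3 fell and 0 rose (median -0.74): Itgam, the CD11b chain of complement receptor 3, measured 43.5, 49.4 and 63.4 CPM in the non-leukemic and 27.1, 19.2 and 25.1 CPM in the leukemic libraries (-1.13 ± 0.21, adjusted p = 0.0213), C5ar1, the C5a receptor, measured 71.4, 128 and 256 CPM in the non-leukemic and 44, 35.1 and 37.7 CPM in the leukemic libraries (-1.97 ± 0.42, adjusted p = 0.0333), and Cd59a, a complement inhibitor, fell (-2.20 ± 0.42). C4b, complement component 4B, measured 0.280, 0 and 1.56 CPM in the non-leukemic and 6.87, 7.09 and 10.2 CPM in the leukemic libraries and did not pass (3.67 ± 1.0, adjusted p = 0.0657). None of 9 Fc receptors passed edgeR's test (median -0.78; at an unadjusted p under 0.05, 0 were higher and 4 lower, while DESeq2 called 0 higher and 4 lower and limma-voom 0 and 0). Fcgrt, the neonatal Fc receptor, was among them (-1.34 ± 0.44, adjusted p = 0.109). None of 24 pattern recognition receptors passed it either (median -0.49; at an unadjusted p under 0.05, 2 were higher and 5 lower, while DESeq2 called 0 higher and 5 lower and limma-voom 0 and 0), Tlr2, a receptor for bacterial lipoproteins, included (-1.25 ± 0.33, adjusted p = 0.0629). Across efferocytosis genes, which serve the uptake of dying cells, 1 of 18 rose and 1 fell. Cd36, a scavenger receptor for oxidised lipid and dying cells, measured 83.7, 90.7 and 93.7 CPM in the non-leukemic and 28, 30.7 and 21.3 CPM in the leukemic libraries (-1.74 ± 0.17, adjusted p = 0.00217), and Tyro3, a receptor kinase for bridging proteins, measured 0, 0.776 and 0.379 CPM in the non-leukemic and 5.08, 5.22 and 7.85 CPM in the leukemic libraries (4.0 ± 0.92, adjusted p = 0.0408). Lysosomal genes had 1 of 24 lower, the proton pump subunit Atp6v0d1 (-0.68 ± 0.16, adjusted p = 0.0449), and 0 higher, and the proteases Ctsd (-0.59 ± 0.23, adjusted p = 0.153) and Ctsb (-0.65 ± 0.25, adjusted p = 0.153) did not pass. The efferocytosis and lysosome counts are near the 4.81% higher and 3.79% lower of all tested genes. Calls were 0 to 3 higher and 0 to 8 lower for complement, 0 higher and 0 to 3 lower for Fc receptors, 0 to 2 higher and 0 to 5 lower for pattern recognition receptors, 0 to 5 higher and 1 to 4 lower for efferocytosis and 0 to 2 higher and 0 to 1 lower for lysosomal genes, with 1 library left out in turn. Cd36 passed whichever 1 library was left out. Itgam, C5ar1, Cd59a, Tyro3 and Atp6v0d1 did not pass when leukemic library 1, 2 or 3 or non-leukemic library 2 was left out (adjusted p up to 0.193). The filter limit stated above holds for Tyro3. C4b passed only without non-leukemic library 3 (adjusted p = 0.00561), and Tlr2 passed only without non-leukemic library 1 or 3 (adjusted p = 0.0389 or 0.0250), and Fcgrt passed only without non-leukemic library 1 (adjusted p = 0.0441). C5ar1 had a log2 fold change of -1.36 without non-leukemic library 3 and Tyro3 one of 3.38 without non-leukemic library 1 and 4.96 without non-leukemic library 2.

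Genes that interleukins 4 and 13 induce in macrophages, often used as marks of the alternatively activated state, were split. Of 22 tested 4 were called lower and 2 higher (median 0.21). Mrc1 measured 53.7, 57.4 and 127 CPM in the non-leukemic and 28.8, 18.4 and 13.8 CPM in the leukemic libraries (-1.96 ± 0.41, adjusted p = 0.0309), Chil3, the chitinase-like protein Ym1 that is also abundant in neutrophil precursors, measured 1853, 2755 and 2876 CPM in the non-leukemic and 987, 566 and 694 CPM in the leukemic libraries (-1.74 ± 0.26, adjusted p = 0.0108), and Cd209a, a C-type lectin, fell (-3.10 ± 0.48). Cdh1, E-cadherin, rose (1.41 ± 0.25, adjusted p = 0.0182), and Ccl24 above is the other gene called higher. Arg1, arginase 1, measured 3.36, 2.75 and 2.23 CPM in the non-leukemic and 26.5, 1.47 and 6.18 CPM in the leukemic libraries and did not pass (2.03 ± 0.90, adjusted p = 0.210). Nos2, the inducible nitric oxide synthase of classically activated macrophages, was too low to be tested, with counts of 0, 7 and 0 in the non-leukemic and 19, 0 and 0 in the leukemic libraries. Calls in the list numbered 0 to 6 higher and 0 to 5 lower with 1 library left out in turn. Mrc1 did not pass when leukemic library 1, 2 or 3 or non-leukemic library 2 was left out (adjusted p up to 0.135). Chil3, Cd209a and Cdh1 each failed in at least 1 of these omissions, not necessarily in all (adjusted p up to 0.0806). Cd209a had a log2 fold change of -2.37 without non-leukemic library 3.

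Most transcription factors and growth factors did not pass. Klf6, a zinc finger factor of inflammatory macrophages, measured 217, 235 and 220.1 CPM in the non-leukemic and 409, 504 and 436 CPM in the leukemic libraries (1.0 ± 0.13, adjusted p = 0.00553), Bhlhe40, a repressor of the basic helix-loop-helix class, rose by 1.70 ± 0.27, Klf2 by 0.55 ± 0.13, and Cebpd, a C/EBP factor of myeloid cells, fell (-1.80 ± 0.30). Counts were 4 higher and 1 lower of 26 (median 0.10), against 4.81% higher and 3.79% lower of all tested genes. Csf1, the growth factor of macrophages, measured 27.7, 26.2 and 32.6 CPM in the non-leukemic and 82.2, 78.2 and 71.6 CPM in the leukemic libraries (1.42 ± 0.15, adjusted p = 0.00259), while its receptor did not pass. Hgf, hepatocyte growth factor, and Tnfsf10, the death ligand TRAIL, rose by 1.47 ± 0.22 and 1.47 ± 0.29. Tnfsf13b, the B cell survival factor BAFF, fell from 22.2, 19.3 and 21 CPM to 6.24, 6.19 and 4.05 CPM (-1.92 ± 0.25, adjusted p = 0.00610), and in total 3 of 20 growth and niche factors rose and 1 fell (median 0.14). Calls numbered 1 to 9 higher and 0 to 5 lower for the transcription factors and 1 to 5 higher and 1 to 2 lower for the growth factors, with 1 library left out in turn. Klf6, Csf1 and Tnfsf13b passed whichever 1 library was left out. Bhlhe40, Klf2 and Cebpd did not pass when leukemic library 1, 2 or 3 or non-leukemic library 2 was left out (adjusted p up to 0.194). Hgf and Tnfsf10 each failed in at least 1 of these omissions, not necessarily in all (adjusted p up to 0.110).

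Lactate is the end product of glycolysis, made from pyruvate by lactate dehydrogenase and carried across the membrane by monocarboxylate transporters. Hcar1, the gene of the lactate receptor GPR81, had 0 counts in all 6 libraries, which allows at most 3 counts, or 0.0996 to 0.179 CPM per library, counting error only. Ldha, the lactate dehydrogenase subunit that favours lactate formation, measured 980.4, 1218 and 1329 CPM in the non-leukemic and 1889.9, 1989.9 and 2026 CPM in the leukemic libraries (0.74 ± 0.16, adjusted p = 0.0300). The transporters did not pass: Slc16a1 (MCT1) measured 516, 376 and 232 CPM in the non-leukemic and 231, 211 and 221 CPM in the leukemic libraries (-0.76 ± 0.27, adjusted p = 0.124) and Slc16a3 (MCT4) measured 45.8, 50.7 and 87.3 CPM in the non-leukemic and 53.9, 56.5 and 69.1 CPM in the leukemic libraries (-0.04 ± 0.26, adjusted p = 0.953), with a sign that turned in 5 of the alternative fits. Pfkp, the platelet-type phosphofructokinase, and Pgk1, phosphoglycerate kinase, rose by 1.44 ± 0.26 and 0.67 ± 0.13, and Pfkfb4, which sets the level of the activator fructose 2,6-bisphosphate, fell (-1.44 ± 0.24). Of 22 tested genes 3 rose and 1 fell (median 0.33), and without non-leukemic library 3 12 rose and 3 fell. Genes of the hypoxia response had 2 higher and 2 lower of 21 (median 0.07): Hif1a, the oxygen-regulated transcription factor, measured 65, 86.4 and 85 CPM in the non-leukemic and 185, 187 and 166 CPM in the leukemic libraries (1.19 ± 0.15, adjusted p = 0.00540), and Ddit4, an inhibitor of mTOR, rose by 2.185 ± 0.35. Bnip3l, a mitophagy receptor needed in maturing red cells, and Mxi1, a MYC antagonist, fell (-1.20 ± 0.13 and -1.06 ± 0.14). Calls numbered 0 to 12 higher and 0 to 3 lower for glycolysis and lactate and 1 to 5 higher and 2 lower for hypoxia, with 1 library left out in turn. Hif1a, Bnip3l and Mxi1 passed whichever 1 library was left out. Ldha, Pfkp, Pgk1 and Ddit4 did not pass when leukemic library 1, 2 or 3 or non-leukemic library 2 was left out (adjusted p up to 0.150). Pfkfb4 failed in at least 1 of these omissions, not necessarily in all (adjusted p up to 0.0783). Slc16a1 passed only without non-leukemic library 3 (adjusted p = 0.00530).

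Of 25 cholesterol and fatty acid synthesis genes 8 rose and 0 fell (median 0.58). Cyp51, lanosterol demethylase, measured 37.7, 46.8 and 39 CPM in the non-leukemic and 114, 91.5 and 98.8 CPM in the leukemic libraries (1.30 ± 0.15, adjusted p = 0.00433), and Scd2, a fatty acid desaturase, measured 134, 142 and 119.6 CPM in the non-leukemic and 341, 275 and 282 CPM in the leukemic libraries (1.18 ± 0.14, adjusted p = 0.00433). In both the lowest leukemic library was above the highest non-leukemic one. Sqle, Lss and Dhcr7 of the sterol pathway rose by 0.93 ± 0.13, 1.05 ± 0.20 and 0.62 ± 0.15, Fasn, fatty acid synthase, by 1.04 ± 0.19, and Srebf2, the regulator of the sterol genes, by 0.69 ± 0.16. The leukemic libraries lay wholly above the non-leukemic ones for 17 of the 25, against 18.3% of all tested genes. Genes of lipid uptake and efflux had 1 of 23 higher, the fatty acid carrier Fabp5 (1.74 ± 0.35, adjusted p = 0.0272), and 3 lower (median -0.62), namely Cd36, Apoe, apolipoprotein E of cholesterol export (-1.90 ± 0.44, adjusted p = 0.0424), and Lpl, lipoprotein lipase (-1.65 ± 0.40, adjusted p = 0.0457). Calls numbered 2 to 12 higher and 0 to 1 lower for synthesis and 0 to 1 higher and 1 to 5 lower for uptake and efflux, with 1 library left out in turn. Cyp51 and Scd2 passed whichever 1 library was left out. Fasn, Srebf2, Fabp5, Apoe and Lpl did not pass when leukemic library 1, 2 or 3 or non-leukemic library 2 was left out (adjusted p up to 0.181). Sqle and Lss each failed in at least 1 of these omissions, not necessarily in all (adjusted p up to 0.113). Dhcr7 did not pass without leukemic library 1, 2 or 3 or non-leukemic library 1 or 2 (adjusted p up to 0.189). Lpl did not pass with limma-voom (adjusted p = 0.0599), and Dhcr7, Apoe and Lpl did not pass with no filter on low counts (adjusted p = 0.0559, 0.0696 and 0.0529). Apoe had a log2 fold change of -1.19 without non-leukemic library 3.

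Genes of the mitochondrial genome fell, while nuclear genes of the respiratory chain did not pass edgeR's test with all 6 libraries. mt-Co1, a subunit of cytochrome c oxidase, measured 1056, 1119 and 917 CPM in the non-leukemic and 514, 433 and 431 CPM in the leukemic libraries (-1.17 ± 0.14, adjusted p = 0.00493), with no overlap. Subunits of complex I and cytochrome b, mt-Nd4 (-1.08 ± 0.13), mt-Nd1 (-1.09 ± 0.15) and mt-Cytb (-1.03 ± 0.14), fell as well, so that 4 of 23 respiratory chain genes fell, all encoded in mitochondria, and 0 rose (median -0.29). At an unadjusted p under 0.05, 0 of the 23 were higher and 12 lower. DESeq2 called 0 higher and 10 lower, and limma-voom 0 and 4. The leukemic libraries lay wholly below for 15 of the 23, against 15.9% of all tested genes. The 12, the 10 and the 15 include nuclear genes. Among antioxidant genes 3 of 21 fell and 1 rose (median -0.47). Gpx1, glutathione peroxidase 1, measured 868, 888 and 1040.2 CPM in the non-leukemic and 401, 419 and 415 CPM in the leukemic libraries (-1.18 ± 0.13, adjusted p = 0.00312), Gclm, of glutathione synthesis, and Prdx5, a peroxiredoxin, fell (-1.19 ± 0.24 and -1.05 ± 0.18), and Txnrd1, thioredoxin reductase 1, rose by 0.93 ± 0.13. In arginine and polyamine metabolism Smox, spermine oxidase, measured 147, 105 and 103 CPM in the non-leukemic and 31.4, 29.9 and 26.7 CPM in the leukemic libraries (-2.01 ± 0.18, adjusted p = 0.00151), Oaz1, an inhibitor of polyamine synthesis, fell (-0.55 ± 0.12), and Ass1, which remakes arginine from citrulline, rose by 1.75 ± 0.20, the 1 of 14 genes to rise. Prostaglandin and leukotriene genes had 1 higher, the prostaglandin receptor Ptger3 (1.23 ± 0.26, adjusted p = 0.0311), and 2 lower of 18, Hpgd and the leukotriene receptor Ltb4r1 (-1.26 ± 0.25, adjusted p = 0.0260). Calls numbered 0 higher and 2 to 7 lower for the respiratory chain, 0 to 1 higher and 1 to 7 lower for antioxidants, 1 higher and 1 to 4 lower for arginine and polyamines and 0 to 3 higher and 1 to 5 lower for prostaglandins, with 1 library left out in turn. mt-Co1, mt-Nd4, Gpx1, Smox and Ass1 passed whichever 1 library was left out. Gclm, Prdx5, Oaz1 and Ltb4r1 did not pass when leukemic library 1, 2 or 3 or non-leukemic library 2 was left out (adjusted p up to 0.184). The genes mt-Nd1, mt-Cytb, Txnrd1 and Ptger3 each failed in at least 1 of these omissions, not necessarily in all (adjusted p up to 0.134).

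Few cell division genes passed. Mki67, the proliferation antigen Ki-67, measured 569, 368 and 324 CPM in the non-leukemic and 230.0, 226 and 174 CPM in the leukemic libraries (-1.0 ± 0.23, adjusted p = 0.0424), and Cdt1, which licenses replication origins, measured 273, 192 and 168 CPM in the non-leukemic and 120.4, 109 and 103 CPM in the leukemic libraries (-0.93 ± 0.20, adjusted p = 0.0313). In the non-leukemic libraries both were highest in library 1 and lowest in library 3, nearest the leukemic ones. The erythroid share (between 1.55% and 1.87% of non-leukemic counts, and 0.0738% to 0.144% of leukemic counts) also differed between the groups, and its part was not tested. Ube2c, a ubiquitin enzyme of mitotic exit, fell (-0.62 ± 0.13). Replication genes had 1 of 25 lower (median -0.46), a share near the 3.79% of all genes, and mitosis genes 2 of 25 (median -0.34), and none rose in either list. Without non-leukemic library 3 the counts lower were 18 and 12, and with 1 library left out in turn they were 0 higher and 0 to 18 lower for replication and 0 higher and 0 to 12 lower for mitosis. None of 25 ribosomal protein genes passed edgeR's test (median -0.07; at an unadjusted p under 0.05, 0 were higher and 0 lower, while DESeq2 called 0 higher and 0 lower and limma-voom 0 and 0), of which Rps19 had the lowest p (-0.20 ± 0.12, adjusted p = 0.325). Mki67, Cdt1 and Ube2c did not pass when leukemic library 1, 2 or 3 or non-leukemic library 2 was left out (adjusted p up to 0.177).

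Genes of the adhesion and protease lists changed in both directions, and 2 of the purine signalling list rose. Itgb7 and Itga6, integrin chains, rose by 1.17 ± 0.25 and 0.87 ± 0.17, Pecam1, CD31, by 0.95 ± 0.21, and Itgb1 by 0.58 ± 0.14. With Itgam and Vcam1 lower, the adhesion list had 4 higher and 2 lower of 24 (median 0.42). Adam19, a membrane protease, measured 9.0, 8.96 and 8.05 CPM in the non-leukemic and 29, 31 and 24.2 CPM in the leukemic libraries (1.69 ± 0.20, adjusted p = 0.00424), Adam17, the sheddase of TNF, rose by 0.57 ± 0.13, and Mmp12, macrophage elastase, had counts of 6, 7 and 9 in the non-leukemic and 886, 59 and 102 in the leukemic libraries. Mmp12 reached the count minimum in the leukemic libraries alone, and limma-voom did not call it (adjusted p = 0.224). Plaur, the urokinase receptor, and Mmp8, neutrophil collagenase, fell (-1.26 ± 0.26 and -1.91 ± 0.41), giving 3 called higher, Mmp12 included, and 2 lower of 18 proteases and inhibitors (median 0.09). Adora2a, an adenosine receptor that restrains immune cells, measured 4.62, 3.58 and 5.31 CPM in the non-leukemic and 30.9, 39.3 and 32.8 CPM in the leukemic libraries (2.93 ± 0.24, adjusted p = 0.00108), and P2ry10, a lymphocyte receptor for lysophospholipids, rose by 2.25 ± 0.31. These were the 2 of 18 genes in the purine signalling list to pass, although the ligands given for P2ry10 are not purines. In the clock list 3 of 16 rose, Rora, a nuclear receptor that also acts in lymphocytes (1.96 ± 0.27, adjusted p = 0.00776), Hlf (0.99 ± 0.22, adjusted p = 0.0373) and Bhlhe40, and 0 fell; the core clock gene Arntl did not pass (-0.65 ± 0.20, adjusted p = 0.0958). Calls numbered 0 to 11 higher and 0 to 4 lower for adhesion, 1 to 6 higher and 0 to 3 lower for proteases, 2 to 5 higher and 0 to 2 lower for purine signalling and 1 to 3 higher and 0 to 1 lower for the clock, with 1 library left out in turn. Adam19, Adora2a, P2ry10 and Rora passed whichever 1 library was left out. Itgb7, Itga6, Pecam1, Itgb1, Adam17, Plaur, Mmp8 and Hlf did not pass when leukemic library 1, 2 or 3 or non-leukemic library 2 was left out (adjusted p up to 0.196). Arntl passed only without non-leukemic library 1 (adjusted p = 0.0115). Mmp8 did not pass with no filter on low counts (adjusted p = 0.0506).

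**Figure D4:**
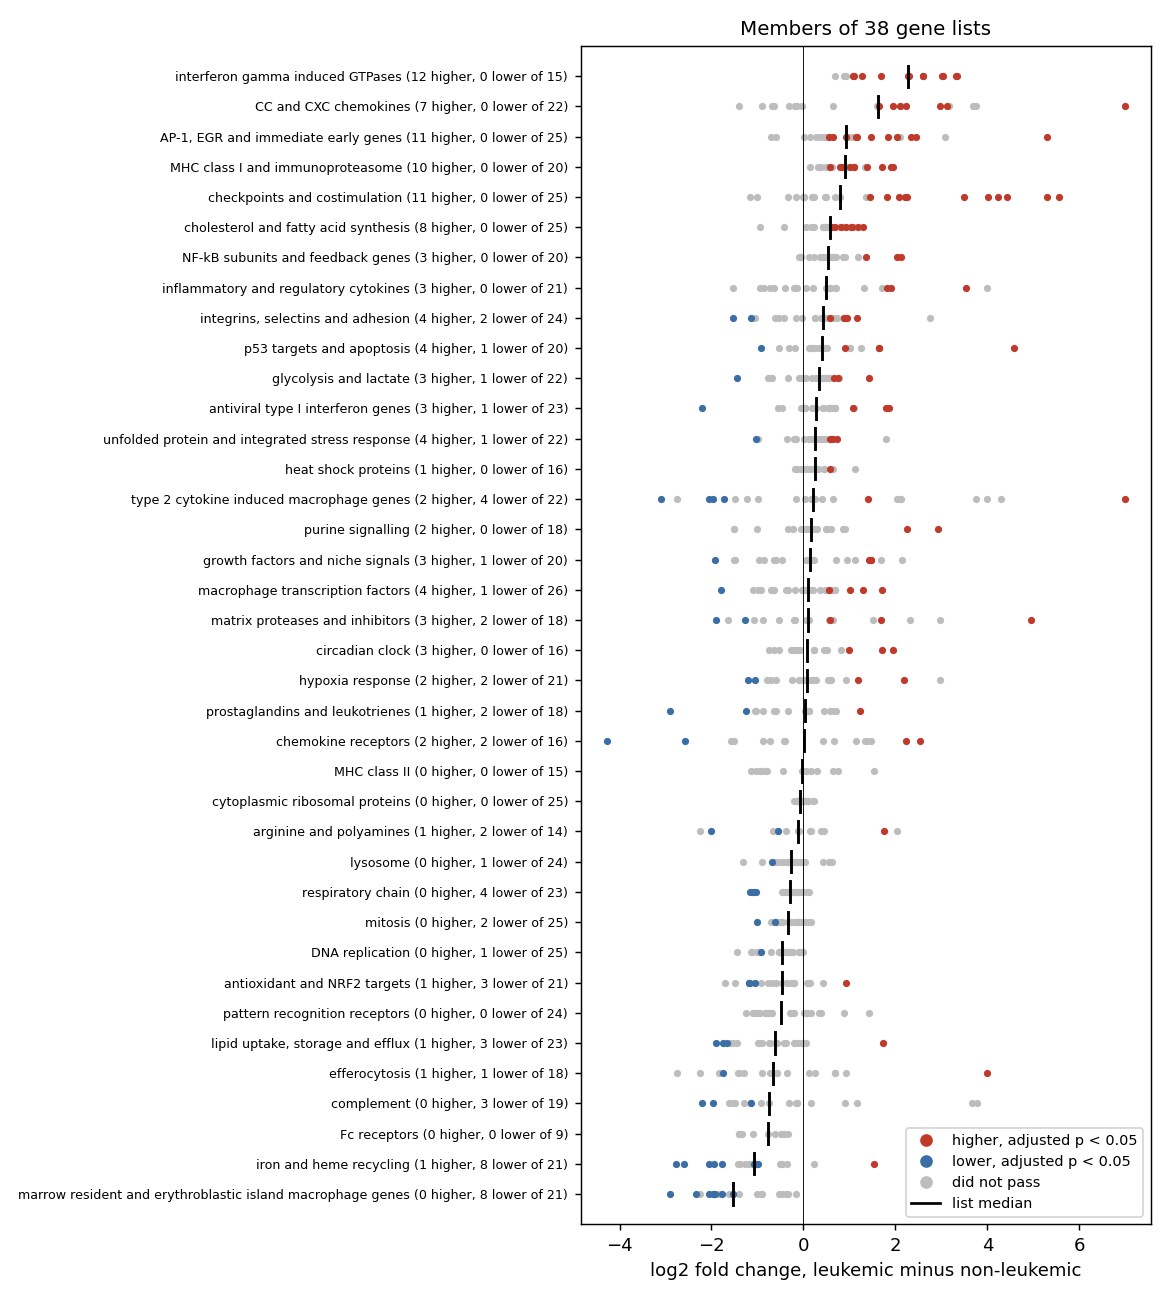
Every tested member of the 38 gene lists, placed by its log2 fold change, leukemic minus non-leukemic (x axis), with lists ordered by their median (black line). Red and blue points passed an adjusted p of 0.05 as higher and lower and gray points did not; interferon gamma induced GTPases are at the top (2.28) and resident and island macrophage genes at the bottom (-1.54).

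Markers of the other cells that a marrow sort could hold moved unevenly. Prss34, a basophil protease, was among the most abundant transcripts at 2314, 3026 and 2746 CPM in the non-leukemic and 5595, 6375 and 7424 CPM in the leukemic libraries (1.26 ± 0.18, adjusted p = 0.00869), and Fcer1a, the IgE receptor chain of basophils and mast cells, rose by 1.53 ± 0.25. Gata2, a factor of those cells and of stem cells, rose by 1.16 ± 0.19, while the eosinophil ribonucleases Ear1, Ear2 and Ear6 fell (-1.48 ± 0.30, -1.79 ± 0.36 and -1.34 ± 0.29). The eosinophil, basophil and mast cell list took 0.569, 0.819 and 0.809% of counts in the non-leukemic and 1.14, 1.19 and 1.40% in the leukemic libraries (3 higher and 4 lower of 15). Hoxa9, a homeobox gene of stem cells and leukemic blasts and a partner in the bcCML fusion, measured 8.39, 14.8 and 11.3 CPM in the non-leukemic and 37.5, 29.4 and 35.9 CPM in the leukemic libraries (1.58 ± 0.25, adjusted p = 0.0127), Hoxa10 rose by 1.76 ± 0.41, and Flt3, a receptor of progenitors and dendritic cells, by 1.44 ± 0.25. Kit, the stem cell factor receptor, did not pass (0.44 ± 0.13, adjusted p = 0.0844), Cd33 fell (-1.41 ± 0.33, adjusted p = 0.0408), and the stem and blast list took 0.0777, 0.125 and 0.103% of non-leukemic and 0.183, 0.183 and 0.185% of leukemic counts (4 higher and 1 lower of 15, median 0.87). Dendritic cell genes had 2 higher and 2 lower of 14, with Siglech of plasmacytoid cells lower (-0.97 ± 0.23, adjusted p = 0.0416). The 2 higher, Flt3 and Cd8a, are also members of the stem and blast list and of the T and NK list. No gene of 16 B and plasma cell markers passed edgeR's test (median -0.39; at an unadjusted p under 0.05, 0 were higher and 5 lower, while DESeq2 called 0 higher and 2 lower and limma-voom 0 and 0), and with 1 library left out in turn calls were 0 higher and 0 to 5 lower, although Igkv4-72, an antibody kappa segment, rose (4.08 ± 0.66, adjusted p = 0.0133) at 2.52, 1.43 and 2.94 CPM in the non-leukemic and 19, 20.4 and 78.3 CPM in the leukemic libraries. Of 10 platelet genes Itga2b rose (0.62 ± 0.13, adjusted p = 0.0265). Osteoclast genes had 1 of 9 lower, Acp5, tartrate-resistant acid phosphatase (-0.97 ± 0.22, adjusted p = 0.0408). Col1a2, a collagen gene of stromal cells, measured 35.8, 102 and 252 CPM in the non-leukemic and 21.8, 19.2 and 15.4 CPM in the leukemic libraries (-2.79 ± 0.63, adjusted p = 0.0385). Sparc, osteonectin of bone matrix, measured 8.30, 29.4 and 77.2 CPM in the non-leukemic and 2.62, 5.68 and 1.37 CPM in the leukemic libraries (-3.57 ± 0.86, adjusted p = 0.0469), and Bglap, osteocalcin, had counts of 36, 89 and 288 in the non-leukemic and 0, 2 and 0 in the leukemic libraries. Non-leukemic library 3 was the highest for these 3 genes, the ones called lower of 12 tested stromal and endothelial genes, and Bglap reached the count minimum in the non-leukemic libraries alone. Pecam1 was the 1 called higher, 4 genes lay wholly above and 5 wholly below, and calls numbered 0 to 3 higher and 0 to 3 lower with 1 library left out in turn. Ear2, Ear6, Hoxa10, Flt3, Cd33, Siglech, Itga2b, Col1a2 and Sparc did not pass when leukemic library 1, 2 or 3 or non-leukemic library 2 was left out (adjusted p up to 0.181). Prss34, Fcer1a, Gata2, Ear1, Hoxa9 and Igkv4-72 each failed in at least 1 of these omissions, not necessarily in all (adjusted p up to 0.130). Acp5 did not pass without leukemic library 1, 2 or 3 or non-leukemic library 1 (adjusted p up to 0.170). Kit passed only without non-leukemic library 3 (adjusted p = 0.0420). Igkv4-72, Col1a2 and Sparc did not pass with limma-voom (adjusted p = 0.0566, 0.0864 and 0.103), and Col1a2 and Sparc did not pass with no filter on low counts (adjusted p = 0.0767 and 0.0913). Igkv4-72 had a log2 fold change of 3.10 without leukemic library 3, Col1a2 one of -1.87 without non-leukemic library 3 and Sparc one of -4.25 without leukemic library 2 and -2.55 without non-leukemic library 3.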

How the data were processed

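RNA from sorted marrow macrophages was turned into cDNA by low-input SMARTer amplification and made into Nextera XT libraries, per the labels' protocols; no molecular identifiers or strand information are described, so antisense and overlapping genes cannot be separated. Build GRCm39, STAR 2.7.9a, featureCounts of Subread 2.0.1, fastp 0.23.1 and DESeq2 1.28.1 are listed, with no order, in the submitters' processing notes. The authors deposited raw counts per gene for 56832 gene symbols or identifiers, of which 29900 had no count in the 6 male libraries. How reads with several matches were counted is not given in the sources used here.

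The 6 male libraries were fitted alone in R 4.3.3 with edgeR 4.0.16 (TMM scaling, robust quasi-likelihood F test, Benjamini-Hochberg adjustment) on 14574 genes with at least 10 counts in at least 3 libraries, and a gene was called at an adjusted p under 0.05. Standard errors were derived from the F statistic, and list shares are percentages of all counts. Female libraries were not used. Tested on simulated data for this comparison (14130 genes), the method recovered 36% of 2-fold and 94% of 4-fold changes, with 6.475% of 139 calls false. The simulation changed few genes and gave both groups the same spread, so its share of false calls does not carry over to the real data. No 2 libraries of a group agreed within sampling noise (chi-square per degree of freedom of 24.67 to 229). Same-numbered libraries of the groups did not deviate together (r = 0.00, 0.02 and -0.05), so no pairing was assumed.

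The members and the 51 lists (38 of gene functions, 13 of cell types; 909 symbols, 3 of them absent from the table) were chosen with earlier results of these data known, and a list's count is therefore no independent evidence of its direction. Text genes were named by rule: the 15 genes with the greatest log2 fold change in each direction among called genes without overlap whose mean log2 CPM reached 3, the 10 with the greatest difference in mean CPM in each direction, the 4 lowest p-values of each list, and a set of gate, lactate and polarization genes; other list members were named after their values were seen, to complete a list. Alternatives were other size factors, DESeq2 1.42.0, limma-voom 3.58.1, other filters on low counts, a minimum change of 1.5-fold, a replicate block and leaving out each library. Start site sequences came from RefSeq's GRCm38.p6, not the build of the counts, and were matched by symbol.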

Additional observations from a re-analysis of the deposited data

How the results depend on the processing

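No called gene that was tested there changed direction under any alternative. The total, higher and lower calls were 2710, 1383 and 1327 with DESeq2 and 551, 327 and 224 with a minimum change of 1.5-fold. On simulated data with few changed genes DESeq2 had 21.63% false calls, a share that does not carry over to these 2710. They were within 1.5 times the reported counts with other size factors, with limma-voom, without a filter on low counts, with edgeR's own filter and with 5 CPM in 3 libraries. With 1 library left out, totals ranged from 267 to 2503, higher calls from 171 to 1379 and lower calls from 93 to 1124. The numbers shared by the groups did not pair the libraries, and with the replicate number as a block 725 genes were called, 408 higher and 317 lower. Not every library correlated best with the library of its own number in the other group.

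Of the genes named, 5 changed sign in some alternative, none of them called: Ddx3y, Kdm5d, Slc16a3, Uty and Xist. For Ddx3y (log2 fold change -0.06) it was from -0.22 to 0.059 with 1 library left out in turn. For Kdm5d (log2 fold change 0.22) it was from -1.4e-04 to 0.50 with 1 library left out in turn. For Slc16a3 (log2 fold change -0.04) it was from -0.23 to 0.31 with 1 library left out in turn, 0.0079 with limma-voom and 0.016 with the replicate block. For Uty (log2 fold change 0.16) it was from -0.062 to 0.67 with 1 library left out in turn. For Xist (log2 fold change 0.60) it was -1.46 with limma-voom and -1.80 with the replicate block. The cause was not tested. At 16911827 to 28564607 counts per library, a gene with 0 counts is limited to 3 counts, or 0.0996 to 0.179 CPM.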

Other observations

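The values below belong to genes and families chosen after their values were seen. Those given as counts, Hoxa7 aside, reached the count minimum in the leukemic libraries alone and are given without a test. Gcg, the glucagon gene of gut and pancreatic endocrine cells, had 2, 0 and 1 counts in the non-leukemic and 5239, 6562 and 4851 in the leukemic libraries. Apoa1, apolipoprotein A1 of liver and gut, had 0, 0 and 1 counts in the non-leukemic libraries against 2045, 583 and 2527 in the leukemic ones. Tph1, the serotonin-making tryptophan hydroxylase of gut and mast cells, had 0 counts in every non-leukemic library and 748, 399 and 2102 in the leukemic ones. The same 0 in every non-leukemic library was counted for Oxtr, the oxytocin receptor (leukemic 267, 156 and 531), and Il21, a cytokine of helper T cells (leukemic 360, 587 and 365). Homeobox genes of the Hoxc cluster also had 0 counts in every non-leukemic library, where the leukemic libraries had 90, 23 and 103 for Hoxc4, then 216, 157 and 159 for Hoxc5, then 54, 30 and 66 for Hoxc6. Hoxa7 had 100, 199 and 161 counts against 679, 617 and 522 and did not pass. Podxl, podocalyxin, measured 0.513, 0.716 and 0.711 CPM in the non-leukemic and 53.5, 24 and 45 CPM in the leukemic libraries (5.98 ± 0.41, adjusted p = 0.000790), and Rgs16, a regulator of G protein signalling, had 4, 0 and 1 counts against 970, 1679 and 809.

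Lymphocyte regulators rose beside the T and NK markers: Eomes by 3.31 ± 0.23, Tbx21, which encodes T-bet, by 2.64 ± 0.27, Tcf7 by 2.49 ± 0.18, Foxp3, the regulator of regulatory T cells, by 2.61 ± 0.44, Zap70 by 3.38 ± 0.33, Gzmk by 7.17 ± 0.64 and Cd40lg by 4.37 ± 0.45. Gzmk (5, 3 and 17 non-leukemic counts) and Cd40lg (15, 8 and 6) passed the filter through the leukemic group, and their rise supports no direction. Variable segments of the T cell receptor beta chain were higher in 16 of 17 tested, Gimap GTPases of lymphocytes in 7 of 8 and killer lectin receptors in 11 of 22, with 1 lower. Of all tested genes 4.81% were higher and 3.79% lower. How many segments reached the count minimum through the leukemic libraries alone was not counted. For any such segment the direction was set by the filter, so the segment count supports no direction. In immunoglobulin kappa variable segments 5 of 75 were higher and none lower (median -0.007), a share near the 4.81% higher of all tested genes. In heavy chain variable segments 2 of 79 were higher and 1 lower (median 0.35).

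Enzymes of heme synthesis fell beside Alas2: Fech (-2.51 ± 0.26), Alad (-1.90 ± 0.38), Urod (-1.75 ± 0.34) and Ppox (-1.85 ± 0.34). The erythroid share (between 1.55% and 1.87% of non-leukemic counts, and 0.0738% to 0.144% of leukemic counts) moved with these enzymes, and its part was not tested. Mgst1, Mgst2 and Mgst3, microsomal glutathione transferases, fell (-1.56 ± 0.27, -1.70 ± 0.26 and -3.46 ± 0.41), and 3 of 5 Cd209 lectins fell. Genes of the mitochondrial genome were lower in 9 of 13 tested (median log2 fold change -1.03). Fkbp5, a target of glucocorticoids, measured 60.8, 61.8 and 55 CPM in the non-leukemic and 165, 159 and 157 CPM in the leukemic libraries (1.44 ± 0.12, adjusted p = 0.00116), Cyp11a1, the first enzyme of steroid synthesis, 27.5, 35.6 and 27.2 CPM in the non-leukemic and 93.4, 111 and 112 CPM in the leukemic libraries (1.81 ± 0.17, adjusted p = 0.00154), and Penk, proenkephalin, 1.82, 1.55 and 1.23 CPM in the non-leukemic and 18, 19.7 and 24.9 CPM in the leukemic libraries (3.76 ± 0.29, adjusted p = 0.000977).

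Eomes, Tbx21, Tcf7, Zap70, Gzmk, Cd40lg, Fech, Mgst3, Podxl, Fkbp5, Cyp11a1 and Penk passed whichever 1 library was left out. For Gzmk and Cd40lg the filter limit above holds for these fits too. Foxp3, Alad, Urod, Ppox, Mgst1 and Mgst2 did not pass when leukemic library 1, 2 or 3 or non-leukemic library 2 was left out (adjusted p up to 0.120). Hoxa7 passed only without non-leukemic library 1 or 2 (adjusted p = 0.0382 or 0.0429). Gzmk had a log2 fold change of 8.15 without non-leukemic library 3.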
